A study of Mus musculus with 5 samples.

Results

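The genes described here are 7 that set vessel tone or respond to oxidant stress: the angiotensin-converting enzyme Ace, the endothelins Edn1, Edn2 and Edn3, the nitric oxide synthases Nos2 and Nos3, and the haem oxygenase Hmox1. They were chosen by gene symbol, each had 1 probe, and together they make up 7 of the 223 probes (203 named genes) of the array. Signals were measured in soleus, a slow postural muscle of the calf, of 5 C57Bl/6 mice labelled as reloaded and, in their titles, as wt, at day 7 per the series title. Each array carried 3 microgram of total RNA from frozen sections, and the mice are numbered 1, 3, 4, 5 and 6 as in the sample titles. The age and sex of the mice and the length of any unloading are not stated in the labels, and muscle from unloaded or control animals was not analysed here, so every statement below is about the spread between these 5 mice.

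Vessel calibre in muscle is set by opposed signals. Ace, an enzyme of the endothelial surface, makes the constrictor angiotensin II and breaks down the dilator bradykinin, while the endothelins are constrictor peptides cut from longer precursors, of which Edn1 is the main endothelial form. Nos3 makes nitric oxide in endothelium at rest, Nos2 is the form induced by cytokines, and Hmox1 breaks haem down to biliverdin, iron and carbon monoxide and is induced by oxidant stress.

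Of the 7 genes, 4 (Ace, Hmox1, Nos2 and Nos3) gave deposited intensities above 0 on all 5 arrays, against 65.9% of all 223 probes. Edn1 was above 0 on 1 array, as were 3.14% of all probes. Edn2 and Edn3 were at or below 0 on all 5 arrays, against 7.62% of all probes. Intensities are in arbitrary units, and values at or below 0 give only a bound, not proof that the transcript was missing. The lowest value on each array gives a measure of how far the background reaches: -0.0168, -0.0059, -0.0041, -0.0103 and -0.0109 for mice 1, 3, 4, 5 and 6. A signal was therefore also compared with the size of that lowest value. By this stricter measure Ace and Hmox1 stood above background on all 5 arrays, against 45.3% of all probes, Nos2 stood above it on 4, and Nos3 and the 3 endothelins on none, against 20.2% of all probes.

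**Figure D1:**
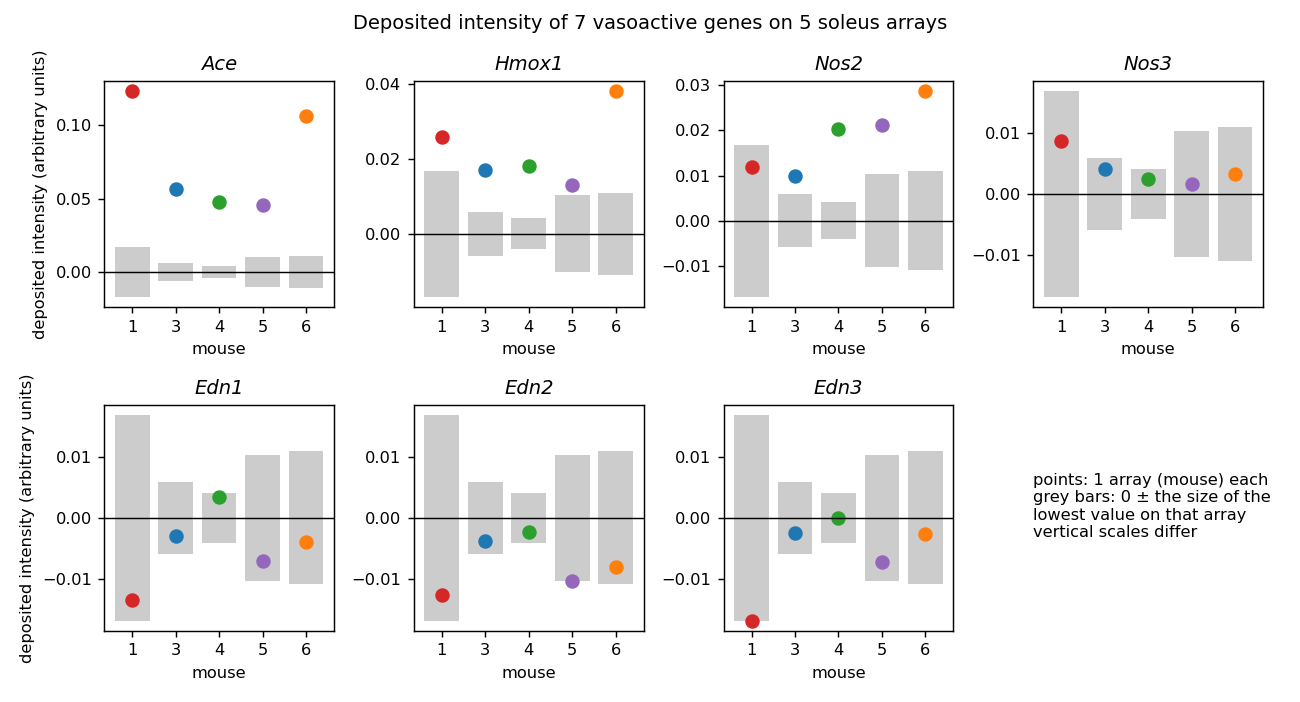
Deposited intensity (vertical axis, arbitrary units, a different scale in each panel) of the 7 genes on the array of each mouse (horizontal axis); each point is 1 array, and grey bars span 0 ± the size of the lowest value on that array. Ace and Hmox1 lie above the grey bar in all 5 mice, Nos2 in 4, and Nos3 and the endothelins in none.

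The arrays differed in overall signal, which touches every level below. The total deposited signal ran from 70.8 in mouse 4 to 137 in mouse 1. The array of mouse 1 ranked the probes least like the others: across the 147 probes above 0 on all arrays, the 4 pairs of arrays with mouse 1 had a Spearman's rho of 0.864 to 0.890 and the 6 pairs without it one of 0.949 to 0.979, a description across probes that are not independent. As a check of the labelled tissue, all 7 muscle fibre genes listed (Myh7, Myh2, Myh1, Myh4, Mb, Des and Cox6a2) were above 0 in every mouse, with summed intensities of 13.4 to 22.2. No sample had a repeat array, so measurement noise and differences between animals are both in the spread.

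Ace stood above background on every array, at 4.43 to 11.7 times the size of the lowest value. Its intensity was 0.123, 0.0568, 0.0478, 0.0456 and 0.106 in mice 1, 3, 4, 5 and 6. Mice 1 and 6, whose arrays had the highest totals, were about level with each other and above the other 3. As a share of the array total, Ace took 0.0895%, 0.0671%, 0.0675%, 0.0558% and 0.0807% in the same order, so the highest value was 1.60 times the lowest, against 2.70 times as deposited.

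Its place among the probes, which does not depend on how an array is scaled, was also highest in mouse 1. Ace was the 49th brightest probe there and ranked between 65 and 71 on the other arrays. After quantile normalisation between arrays the level was 0.0729 ± 0.0243 (SD, n = 5). The coefficient of variation (CV), which is the SD over the mean in percent, was 33.3%, and 9.94% without mouse 1. Most of the quantile-normalised spread of Ace thus rests on mouse 1, the array that stood apart.

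Hmox1 held the steadiest place on the arrays. Its intensity was 0.0259, 0.0170, 0.0180, 0.0130 and 0.0380 in mice 1, 3, 4, 5 and 6, highest in mouse 6 and lowest in mouse 5. Its rank lay between 105 and 114 of 223 in every mouse. After quantile normalisation Hmox1 was at 0.0217 ± 0.00259 (SD, n = 5), and the highest mouse was 1.40 times the lowest. Its CV was 11.9%, 44.3% as deposited and 24.1% when scaled to the array total. Without mouse 3 it was 7.13%.

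**Figure D2:**
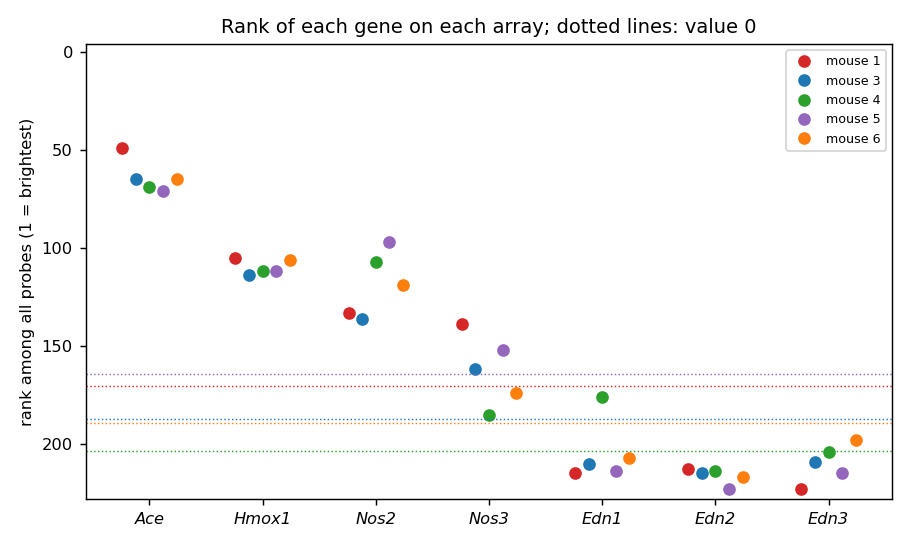
Rank of each of the 7 genes (vertical axis, 1 is the brightest of 223 probes) on each array, coloured by mouse; dotted lines show, for each mouse, the rank at which intensities reach 0. Hmox1 lies within ranks 105 to 114, Nos2 spreads from 97 to 136, and the endothelins lie at ranks 176 to 223.

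Nos2, the inducible synthase, was above the size of the array's lowest value in 4 mice, and its rank moved from mouse to mouse over 97 to 136. Across the 5 mice, in that order, its intensity was 0.0119, 0.0099, 0.0202, 0.0211 and 0.0286. Mice 1 and 3 were low and the other 3 high, and mouse 1 was the exception that stayed within the reach of background. The same division held for its share of the array total, which was 0.00866% and 0.0117% in mice 1 and 3 and 0.0285%, 0.0258% and 0.0218% in mice 4, 5 and 6. It also held for its rank, 133 and 136 in mice 1 and 3 against 97 to 119 in the others. Quantile-normalised Nos2 was at 0.0182 ± 0.00924 (SD, n = 5), with a CV of 50.9% (41.3% as deposited) that lay between 43.4% and 58.8% when each mouse was left out in turn.

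Nos3, the endothelial synthase, could not be set apart from background. The values in mice 1, 3, 4, 5 and 6 were 0.0087, 0.0041, 0.0025, 0.0016 and 0.0032. All 5 values were above 0 and all were smaller than the lowest value of their array was in size, between 0.155 and 0.695 of it. Mouse 1 was highest as deposited, as a share of the total and after quantile normalisation, but the lowest mouse depended on the scaling. It was mouse 5 as deposited, and mouse 4 after quantile normalisation, which placed mouse 5 next to mouse 1. The quantile-normalised level was 0.00351 ± 0.00269 (SD, n = 5) with a CV of 76.6%, or 46.8% when scaled to the array total.

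The ratio of Nos2 to Nos3 within an array is not changed by a factor common to all its probes. Its size depends on the 2 probes, so it does not say which transcript was more abundant, and only its change from mouse to mouse is described. From deposited values the ratio was 1.37, 2.41, 8.08, 13.2 and 8.94 in mice 1, 3, 4, 5 and 6, with a median of 8.08. Mice 1 and 3 were below the other 3, and the highest ratio was 9.64 times the lowest. On no array were both genes above the size of the lowest value, so the divisor was within the reach of background throughout.

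The ratio also depended on how the values were treated. Adding the same amount to both genes draws any ratio above 1 towards 1, and the amount added here exceeded Nos3 on every array. The lower ratios were thus set in advance, and only their order is of use. With the size of the array's lowest value added to both genes, the ratios were 1.13, 1.58, 3.68, 2.64 and 2.80 in mice 1, 3, 4, 5 and 6, with a median of 2.64. Quantile normalisation gave 1.38, 2.60, 32.8, 5.87 and 15.5. In all 3 settings mice 1 and 3 had the lowest ratios, while the mouse with the highest was mouse 5 as deposited and mouse 4 in both other settings. Against Hmox1, a comparison chosen after the values were seen, the ratio of Nos2 was 0.459, 0.582, 1.12, 1.62 and 0.753 in the same order. Mice 1 and 3 were again the lowest, here with a divisor above background on all 5 arrays.

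**Figure D3:**
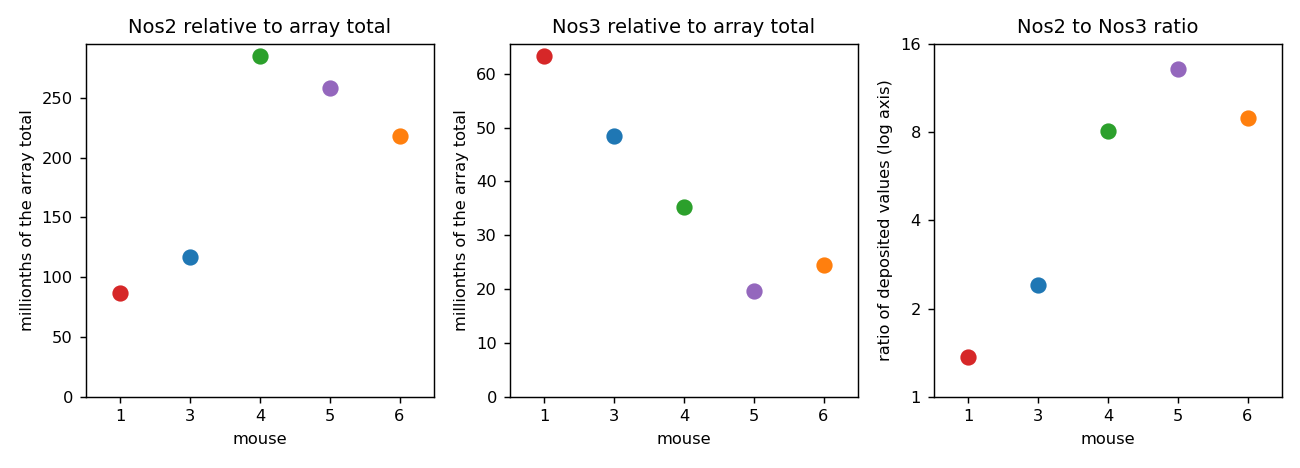
Nos2 and Nos3 as millionths of the array's total signal (left and middle, axes from 0) and the ratio of their deposited values (right, log axis) in each mouse; each point is 1 array. Mice 1 and 3 have the lowest Nos2 and, as a share of the total, the highest Nos3, and the lowest ratios, at 1.37 and 2.41 against 8.08 to 13.2 in the others.

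The endothelins gave no signal that could be told from background. Edn1 was at -0.0134, -0.0030, 0.0034, -0.0071 and -0.0040 in mice 1, 3, 4, 5 and 6. The value above 0, in mouse 4, was 0.829 of the size of that array's lowest value. Edn2 was at -0.0126, -0.0038, -0.0023, -0.0103 and -0.0080, and Edn3 at -0.0168, -0.0025, -0.0001, -0.0072 and -0.0026, in the same order. Of the 15 endothelin values, 1 was above 0. Edn3 was the lowest of all 223 probes on the array of mouse 1, and Edn2 on that of mouse 5, so endothelin probes themselves set the background measure used above on those arrays.

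The ratio of Ace to Edn1 could be formed only in mouse 4, where both were above 0, and was 14.1. It has no spread and rests on an Edn1 value within the reach of background. In the other 4 mice Edn1 was at or below 0 and no ratio is given. Against Hmox1, again chosen after the values were seen, the ratio of Ace was 4.75, 3.34, 2.66, 3.51 and 2.78 in mice 1, 3, 4, 5 and 6. Mouse 1 was highest, and the highest ratio was 1.79 times the lowest.

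How the spread of these genes between mice compared with that of equally bright probes was tested with limma. The log2 variance of each probe was set against a trend in mean signal over 146 probes, and p-values were Benjamini-Hochberg adjusted over all of them. The test called 0% of the probes wider and 0% narrower, so none of the 4 genes above 0 on all arrays was called. At an unadjusted p below 0.05, 7 probes were wider and 8 narrower. Each direction was tested on its own, and both counts are near the share that a threshold of 0.05 gives by chance. For each gene below, the p-values are those of the direction with the smaller adjusted p, which for Hmox1 and Ace is narrower. The SD of Hmox1 was 0.356 of the trend, with 5 probes narrower still (limma, unadjusted p = 0.035, adjusted p = 0.70). Nos2 had 1.38 times the SD of the trend (limma, adjusted p = 0.89), Nos3 1.16 times (limma, adjusted p = 0.90) and Ace 0.929 of it (limma, adjusted p = 0.96). These values are for quantile-normalised intensities, and the order of the genes changed with the scaling. As deposited, Hmox1 was at 0.753 of the trend and Nos3 at 0.558. With 5 arrays, a result short of the threshold does not show that these genes varied as others did.

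**Figure D4:**
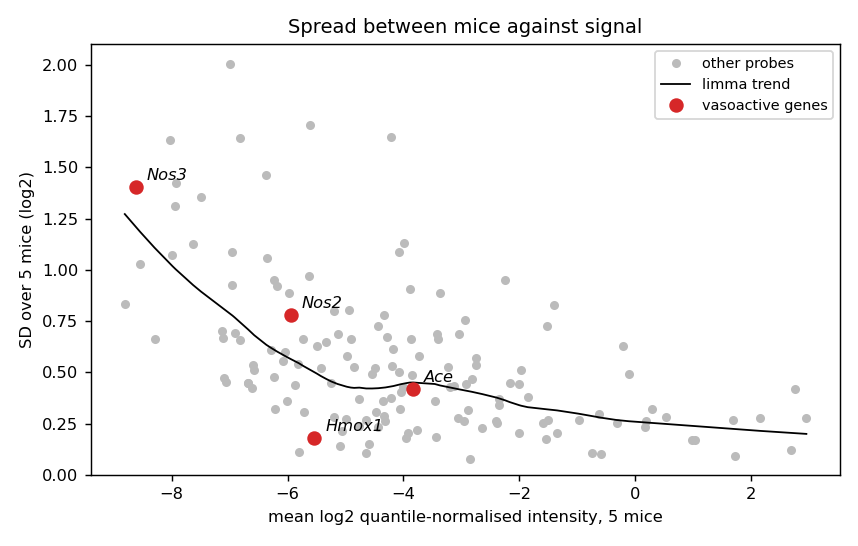
SD over the 5 mice (vertical axis, log2) against mean quantile-normalised intensity (horizontal axis, log2) for 146 probes; the line is the limma trend and the 4 vasoactive genes above 0 on all arrays are in red. Hmox1 lies below the line at 0.356 of it, and Nos2 above it at 1.38 times.

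The genes whose pattern over the 5 mice was nearest were found by the root mean square difference of log2 deviations from each gene's own mean, over 137 other named genes and after quantile normalisation. This is a description, since the nearest of 137 genes are near by selection. For Ace they were Jund, a subunit of the transcription factor AP-1 (0.11), the IGF-binding protein Igfbp5 (0.13) and the laminin chain Lama5 (0.17), against a median of 0.48. For Nos2 they were Pecam1 (0.24), the glucose transporter Slc2a2 (0.26) and Ang2, a ribonuclease of the angiogenin family (0.38), against a median of 0.83. For Hmox1 they were the growth factor receptor Fgfr1 (0.07), the cyclin Ccnd1 (0.12) and Cd34 (0.12), against 0.47. For Nos3 the nearest were the laminin chain Lamb1 (0.64), Adam2 (0.65) and the calpain inhibitor Cast (0.75), against 1.31. Nos3 lay within the reach of background on all 5 arrays, so its pattern cannot be told from that of background.

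Pecam1, an endothelial adhesion molecule, was deposited at 0.117, 0.0854, 0.147, 0.201 and 0.264 in mice 1, 3, 4, 5 and 6. As deposited, mice 1 and 3 were the lowest for Pecam1 and for Cdh5, as for Nos2, but not for the other 4 endothelial markers on the array. Flt1 and Tek were lowest in mice 1 and 5, Kdr in mice 3 and 4 and Cd34 in mice 3 and 5. These orders depend on the scaling, since the array totals differed and that of mouse 1 was highest, at 137. The count of markers is for deposited values only. No share of the array total, in which the Nos2 division also held, was formed for them. After quantile normalisation Pecam1 and Cd34 were lowest in mice 1 and 3. In log2 from their means over the mice, Pecam1 was at -0.531 and -0.572 there, and Cd34 at -0.0730 in both. Cdh5, Kdr, Flt1 and Tek were not compared in that scaling here. All 6 endothelial markers were above 0 in every mouse, and 4 of them (Pecam1, Cdh5, Kdr and Cd34) stood above the size of the lowest value on all arrays. Their summed intensity was 0.416, 0.369, 0.512, 0.507 and 0.876 in mice 1, 3, 4, 5 and 6, lowest in mice 1 and 3, and is carried by the brightest probes. Their geometric mean, which weights them alike, was 0.0284, 0.0443, 0.0641, 0.0362 and 0.0929, lowest in mice 1 and 5. Relative to that mean Nos2 was at 0.420, 0.223, 0.315, 0.583 and 0.308. Mouse 1 was second to mouse 5, and the division of mice 1 and 3 from the others was not kept against this mean of all 6. That mean gives equal weight to Tek and Flt1, which lay within the reach of background on some arrays. Tek was at 0.0019 and 0.0009 in mice 1 and 5, and Flt1 at 0.0030 in mouse 1. No mean of only the 4 markers above background was formed, so this order does not show that the division is lost against endothelial markers. In whole muscle, fewer cells of a type and less RNA per cell cannot be told apart, and the part of endothelial content in the Nos2 values was not tested.

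Markers of other cells lay on both sides of the background. Of a list of 11 immune cell genes, 6 had a named probe, and Ptprc, Cd68, Adgre1, Itgam and Csf1r had none. Of those 6, Il1b, Il6, Csf3r, Mmp8 and Mmp9 were at or below 0 in all mice and Mmp12 was above 0 in 1. Their summed intensity was below 0 in every mouse (-0.0700 to -0.0168). The receptor genes Csf2ra and Csf2rb2, which were not on the list, were above 0 in all mice. Nos2, which activated macrophages also make, was above 0 in all 5 mice, as were 65.9% of all probes. In mouse 1 it lay within the reach of background. Which cells gave the Nos2 signal was not tested. Pdgfrb, the pericyte marker on the array, was above 0 in all mice, at 0.0314 to 0.0534. Of the fat cell markers, Fabp4 was above 0 in all mice, at 0.131 to 0.228, and Lipe in none. They went opposite ways, and which cells gave the Fabp4 signal was not tested. No probe used here was named for a blood marker.

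Partners of the vasoactive genes were few on the array. From a list of 8 genes of the endothelin and angiotensin system, 3 had a probe, and each was above 0 on some arrays. Agt, the precursor of angiotensin, was at 0.0011, 0.0050, 0.0074, -0.0004 and 0.0147 in mice 1, 3, 4, 5 and 6. The receptor Agtr1a, which carries the constrictor action of angiotensin II, was above 0 in 3 mice and highest in mouse 6 at 0.0251. Agt stood above the size of the lowest value on 2 arrays and Agtr1a on 1, so most of their values lay within the reach of background. The other receptor, Agtr2, was at -0.0093, 0.0204, 0.0383, 0.0377 and 0.246, so that mouse 1 was at background and mouse 6 far above the rest. Ace, in contrast, was highest in mouse 1.

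Among the hypoxia regulators, which act upstream of several vascular genes, Arnt was above 0 on all arrays (0.0126 to 0.0415), Hif1a on 4 (-0.0017 to 0.0136) and Vhl on none. Arnt stood above the size of the lowest value on 4 arrays and Hif1a on 3. Arnt and Hif1a were lowest in mouse 1. From the list of oxidative stress and haem genes only myoglobin (Mb), a haem protein of red muscle fibres, had a probe, and it was at 3.98, 2.04, 2.80, 3.53 and 3.80 in mice 1, 3, 4, 5 and 6. As deposited, Hmox1, which degrades haem, was highest in mouse 6, where Mb was second to mouse 1. The array of mouse 6 had a high total, 131, so these orders depend on the scaling. A link between Hmox1 and Mb was not tested. Thrombospondins, matrix proteins that restrain vessel growth, were above 0 in every mouse, Thbs1 at 0.0388 to 0.183 and Thbs2 at 0.0001 to 0.0280. Thbs1 stood above the size of the lowest value on 5 arrays and Thbs2 on 4. The lists of nitric oxide and cGMP genes and of prostanoid enzymes had no named probe among the values used here.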

How the data were processed

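The deposited values are linear array intensities. How the authors scanned, background-corrected and scaled them is not given in the sources. Array totals and medians differ, so levels are given as deposited, with rank and array share beside them. Probes were named through the platform annotation, with current symbols from the GRCm38.p6 RefSeq gene table by gene ID (205 of 223 probes had 1 symbol, none had several, 18 had no entry). Probe sequences and positions were not used here. For SD, CV and the spread test, log2 intensities of the 147 probes above 0 on all arrays were quantile normalised. For the test, 1 probe, brightest on every array, was left out. Variances were set against a robust trend with limma 3.58.1 (statmod 1.5.0, R 4.3.3). On simulated data only the wider direction was tried, with a few probes of much larger SD, so the narrower direction was not checked. Adjusted p-values were Benjamini-Hochberg values, threshold 0.05. Figures used matplotlib 3.10.9. The number of arrays, 5, limits the precision, and whether samples come from separate animals is taken from the labels. Members, gene lists and tests were chosen with earlier results of these data known. All 7 genes are named, with the 3 nearest genes of each one above 0 on all arrays and the listed partner and marker genes on the array. Alternatives were other scalings, a stricter background, leaving out the dimmest 25% of probes, a trend that is not robust, other ratio summaries and leaving out each mouse. Adding the lowest value's size before the ratio was chosen after seeing the data.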

Additional observations from a re-analysis of the deposited data

How the results depend on the processing

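No paired analysis was possible because the labels give 1 group. The count of genes above 0 on all arrays was 4 with each mouse left out in turn, and 2 when the intensity had to exceed the size of the array's lowest value. The number of probes called in the spread test was 0 in every scaling but the deposited one, where 2 (Csf2rb2 and Thbs2, neither a vasoactive gene) were called by limma, and 0 without each mouse. None of the 4 genes above 0 on all arrays was called in any setting run. Leaving out the dimmest probes removed Nos2 and Nos3 from the test. The SD relative to the trend, with each mouse left out in turn, ran from 0.432 to 1.04 for Ace, 1.01 to 1.58 for Nos2, 0.870 to 1.19 for Nos3 and 0.204 to 0.428 for Hmox1. It moved more with the scaling. As deposited it was 0.961 for Ace, 0.733 for Nos2, 0.558 for Nos3 and 0.753 for Hmox1. Scaled to the array total it was 0.535, 1.17, 0.480 and 0.584 in the same order. In both of these scalings Nos3 lay further below the trend than Hmox1. Scaled to the array total, the CV was 18.2% for Ace, 46.8% for Nos3 and 24.1% for Hmox1, and as deposited it was 44.3% for Hmox1. Leaving out each mouse, the CV ran from 9.94% (without mouse 1) to 37.9% for Ace, 43.4% to 58.8% for Nos2, 60.9% to 94.2% for Nos3 and 7.13% (without mouse 3) to 13.8% for Hmox1. The median Nos2 to Nos3 ratio was 2.64 with the size of the lowest value added to both, and 5.25 to 8.51 with each mouse left out. The fall to 2.64 follows from the addition itself. The Ace to Edn1 ratio exists in 1 mouse, so no alternative gave a value, and neither ratio had an array with both genes above the stricter background. Signal over background limits Nos3 and the endothelins most. The causes of the other shifts were not tested.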
